A study of Homo sapiens with 6 samples.

Results

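The genes described here are 28 rows of the deposited gene count table, out of 36601 rows, chosen by name as genes of cholesterol synthesis and uptake and ordered by their place in the pathway. They comprise 6 genes of the mevalonate pathway, 2 prenyl diphosphate synthases and 3 genes that build squalene and lanosterol. A further 9 act between lanosterol and cholesterol, and 4 belong to the SREBP control system. The last 4 are genes of lipoprotein uptake, sterol transport, ester storage and lipid synthesis. These members do not cover every step of the pathway. The selection rule itself contains no measured value, although it was written with earlier results of these data known. Poly(A)-selected RNA was sequenced from U2OS cells, a human osteosarcoma line, in which doxycycline induced TDP-43-mNLS-Clover, a Clover-tagged form of the RNA-binding protein TDP-43 whose label marks a change in its nuclear localization signal. The aggregate group (3 libraries) came from cultures given 50 nM fibril seeds of the recombinant TDP-43 LCD with lipofectamine-3000, and an image-based sorter took the cells with Clover aggregates 48 hours later. The diffuse group (3 libraries) came from cultures mock transfected with the seeds' storage buffer and sorted at the same time for diffuse Clover signal. Both groups carried the transgene, received doxycycline and grew in medium with serum. Group, fibril exposure and sort gate coincide, so their parts in any difference cannot be told apart. No source used here names the promoter that drives the transgene or says whether the line is 1 clone.

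Cells make cholesterol from acetyl-CoA through the mevalonate pathway, which also supplies the prenyl groups of many proteins, and through squalene and lanosterol. The transcription factor SREBP-2, encoded by SREBF2, switches these genes on when membranes of the endoplasmic reticulum run low in sterol: its escort SCAP then carries it to the Golgi for cleavage, while INSIG proteins hold SCAP back when sterol is plentiful. Cultured cells also take cholesterol from serum lipoproteins, export it to membranes by transfer proteins, and store the surplus as esters.

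In aggregate cells 21 of the 28 genes rose, 6 fell and 1, SCAP, did not pass the test. The test was edgeR's quasi-likelihood test with Benjamini-Hochberg adjustment over 17839 genes, at an adjusted p of 0.05. Changes were common in this comparison, and 75.4% of all genes tested passed. The 21 members that rose stand beside a share of 37.8% of all genes that rose, and the 6 that fell beside 37.6% that fell. The median log2 fold change of the members was 0.43, against 0.01 over all genes, and the members ranged from -1.04 for LBR to 1.46 for DHCR7. The 3 libraries of one group lay wholly above the 3 of the other in 27 of 28 members, a pattern seen in 76.2% of all genes. DHCR7, MSMO1 and MVK rose more than 2-fold, and LBR fell more than 2-fold.

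**Figure D1:**
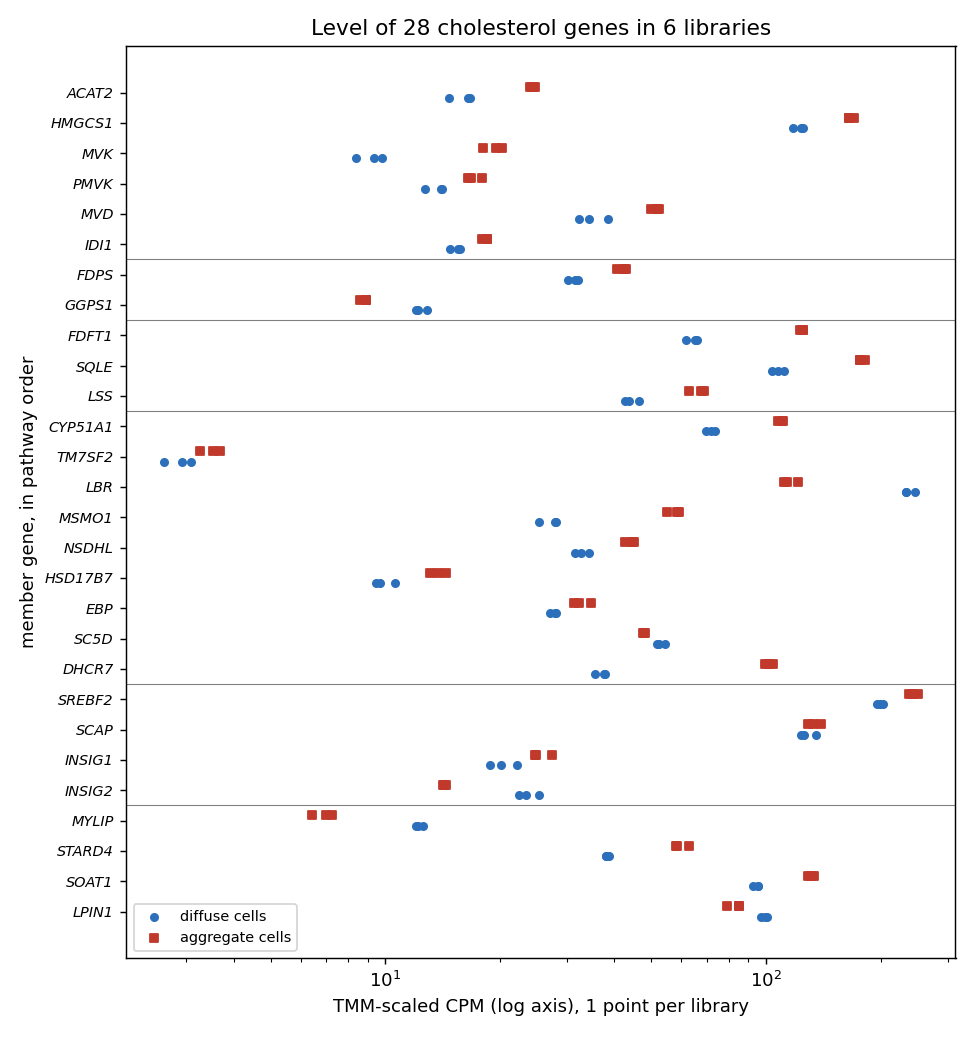
TMM-scaled CPM (log axis) of the 28 members in pathway order, 1 point per library, with diffuse libraries as blue circles and aggregate libraries as red squares; grey lines separate the roles. The groups are apart in every member except SCAP, and LBR, INSIG2, MYLIP, GGPS1, SC5D and LPIN1 are the members with the aggregate libraries on the left.

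Levels below are CPM (counts scaled to a library total of 1e6) after TMM scaling, a factor that evens out library composition, as mean ± SD with n = 3 libraries a group unless each library is given. Summed over the 28 members, the level was 1958.4, 1949.1 and 1920.8 CPM in aggregate libraries 1, 2 and 3 against 1606.0, 1550.1 and 1603.1 in diffuse libraries 1, 2 and 3. Over the 20 synthesis genes alone the sum was 1244.0 ± 9.68 CPM in aggregate cells and 970.7 ± 21.3 in diffuse cells, a ratio of 1.28. The aggregate libraries were the higher ones in both sums, with no overlap. Replicates of a group lay close together, with a coefficient of variation (SD over mean) of 0.51% to 8.88% and a median of 3.34% over the members. In bulk RNA, fewer cells expressing a gene and less RNA per cell cannot be told apart.

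Start-site sequences were drawn from RefSeq (GRCh38.p14) for 25 members. SQLE, ACAT2 and FDFT1 were not among them. Each window of 250 bases before to 50 after the start was searched on both strands for TCACNCCAC, a form of the sterol regulatory element bound by SREBPs, CACGTG, the E-box, CCAAT, the NF-Y box, and GGGCGG, the GC box of Sp1-type factors. No pattern contains another, and a match is a description of the letters, not a bound site. CCAAT was present in 19 of 25 members (76.0%), against 39.72% of 27305 genes in the table. Among risen members it was present in 16 of 18, and among fallen members in 3 of 6, these being GGPS1, MYLIP and SC5D. GGGCGG was present in 23 of 25 members, against 48.3% of genes. The member windows were also richer in G and C, with a median of 67.7% against 58.7% over all windows. The 27305 genes were not limited to the 17839 tested in these cells. The part of either difference in the CCAAT and GGGCGG shares was not tested. CACGTG was found in INSIG1, LSS, SC5D and SCAP, and in 8.77% of genes. TCACNCCAC was found in SREBF2 alone, 133 bases before its start, and in 1.39% of genes. No match says only that these letters are not in this window.

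The 250 bases before the start are printed for 6 members, chosen after their values were seen: the largest rises and falls among genes with a single window (MSMO1 and MVK, LBR and MYLIP), with INSIG1 for its E-box and SREBF2 for its sterol element. Bases run 5′ to 3′ along the gene's strand, and capitals mark the NF-Y box on either strand, the E-box and the sterol element. The windows lie at chr4:165327419-165327668 (plus strand) for MSMO1, chr12:109573544-109573793 (plus) for MVK, chr1:225428822-225429071 (minus) for LBR, chr6:16128836-16129085 (plus) for MYLIP, chr7:155297628-155297877 (plus) for INSIG1 and chr22:41832855-41833104 (plus) for SREBF2. RefSeq starts do not always coincide with the outer gene bounds of GENCODE 29 given further on.
MSMO1: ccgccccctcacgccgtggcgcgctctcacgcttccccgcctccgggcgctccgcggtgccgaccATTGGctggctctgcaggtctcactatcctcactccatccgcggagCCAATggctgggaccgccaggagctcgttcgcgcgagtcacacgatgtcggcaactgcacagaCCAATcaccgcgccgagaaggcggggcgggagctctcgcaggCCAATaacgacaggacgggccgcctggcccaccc
MVK: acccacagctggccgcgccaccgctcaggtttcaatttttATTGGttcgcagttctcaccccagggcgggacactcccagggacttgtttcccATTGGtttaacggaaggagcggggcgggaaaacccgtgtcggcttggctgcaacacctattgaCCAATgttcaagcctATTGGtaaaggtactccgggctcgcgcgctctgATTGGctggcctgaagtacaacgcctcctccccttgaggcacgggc
LBR: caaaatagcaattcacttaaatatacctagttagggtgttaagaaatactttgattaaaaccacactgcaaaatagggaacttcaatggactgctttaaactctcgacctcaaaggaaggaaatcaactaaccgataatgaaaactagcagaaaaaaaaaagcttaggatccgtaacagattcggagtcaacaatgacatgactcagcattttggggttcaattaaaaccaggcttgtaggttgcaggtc
MYLIP: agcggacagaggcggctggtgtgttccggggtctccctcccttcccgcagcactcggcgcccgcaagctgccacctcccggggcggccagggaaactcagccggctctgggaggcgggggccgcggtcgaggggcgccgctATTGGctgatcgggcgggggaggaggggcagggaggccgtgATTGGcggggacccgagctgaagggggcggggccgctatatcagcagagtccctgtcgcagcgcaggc
INSIG1: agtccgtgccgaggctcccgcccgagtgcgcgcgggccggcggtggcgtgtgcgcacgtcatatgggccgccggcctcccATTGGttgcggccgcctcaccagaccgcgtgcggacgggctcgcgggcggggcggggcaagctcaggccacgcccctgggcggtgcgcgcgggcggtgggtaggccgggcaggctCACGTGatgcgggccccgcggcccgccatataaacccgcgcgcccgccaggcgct
SREBF2: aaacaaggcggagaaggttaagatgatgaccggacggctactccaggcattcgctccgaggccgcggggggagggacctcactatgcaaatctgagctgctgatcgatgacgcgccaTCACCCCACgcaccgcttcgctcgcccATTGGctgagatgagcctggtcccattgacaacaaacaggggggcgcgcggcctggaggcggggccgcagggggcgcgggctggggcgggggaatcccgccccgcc
The MVK window holds CCAAT 5 times and that of MSMO1 4 times, on either strand. MYLIP, which fell, has 2 copies, and LBR, which fell most, has none in an A- and T-rich stretch. The CCAAT letters were thus found on both sides of the change.

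All 6 members of the mevalonate pathway rose, with a median log2 fold change of 0.50. MVK (mevalonate kinase, chr12:109573255-109598117, plus strand, in hg38 as for all gene positions here, from GENCODE 29) phosphorylates mevalonate and had the strongest change of the 6. Its level was 20.3, 19.5 and 18 CPM in aggregate libraries 1, 2 and 3 against 9.80, 8.38 and 9.35 in diffuse libraries 1, 2 and 3. The lowest aggregate library was well above the highest diffuse one. The log2 fold change was 1.07 (SE 0.06), a 2.10-fold rise (edgeR quasi-likelihood adjusted p = 1.53e-28). MVK shares 4.72% of its annotated exon bases with MMAB, a cobalamin enzyme gene on the opposite strand that rose by 0.30 on the log2 scale.

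ACAT2, the cytosolic acetoacetyl-CoA thiolase that opens the pathway (chr6:159760328-159779055, plus strand), read 24.5, 24.7 and 24.1 CPM in aggregate libraries against 16.7, 16.5 and 14.7 in diffuse libraries. The groups did not overlap, and the log2 fold change was 0.61 (SE 0.05, edgeR adjusted p = 5.53e-18). ACAT2 shares 26.54% of its exon bases with SOD2 on the opposite strand, and SOD2, the mitochondrial superoxide dismutase, rose from 145 to 417 CPM. Another 9.23% is shared with TCP1, a chaperonin subunit gene that rose from 259 to 439 CPM. No source used here says whether the authors' counting used strand, so reads of these neighbours cannot be told apart from those of ACAT2 in the gene counts. Reads that cross annotated ACAT2 introns have splice sites of their own: TMM-scaled to 1e6 intron reads they numbered 32.6, 33.4 and 33.0 in aggregate libraries against 21.6, 19.1 and 18.5 in diffuse libraries. That is a log2 ratio of 0.74, in the same direction as the gene count.

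HMGCS1, the synthase that makes HMG-CoA (chr5:43289395-43313512, minus strand), was the most abundant of the 6 by CPM and per length. It rose from 122 ± 3.78 to 167 ± 3.07 CPM, a log2 fold change of 0.45 (SE 0.04, edgeR adjusted p = 5.36e-21). MVD, which decarboxylates mevalonate diphosphate, rose from 35 ± 3.11 to 51.3 ± 1.37 CPM, by 0.56 (SE 0.05) on the log2 scale. The changes of PMVK, the phosphomevalonate kinase, and IDI1, the isopentenyl diphosphate isomerase, were smaller. PMVK rose from 13.6 ± 0.769 to 17.1 ± 0.788 CPM and IDI1 from 15.4 ± 0.468 to 18.3 ± 0.337 CPM, with log2 fold changes of 0.33 and 0.25. Both passed against no change, but neither passed when the fold had to exceed 1.2 (edgeR glmTreat adjusted p = 0.0903 and 0.447).

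**Figure D2:**
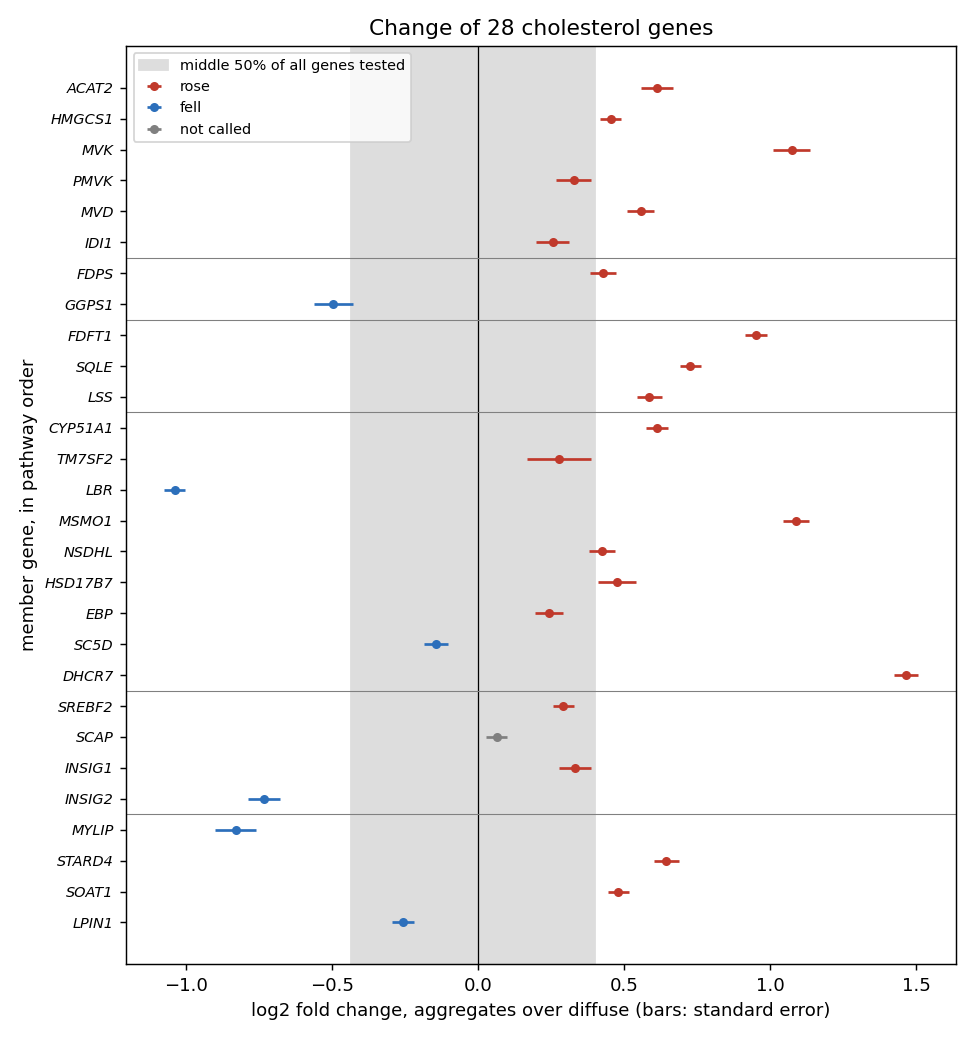
Log2 fold change of each member, aggregate over diffuse cells, from the edgeR fit, with bars for the standard error; red rose, blue fell, grey was not called, and the grey band spans the middle 50% of all genes tested, from -0.437 to 0.399. DHCR7 and MSMO1 lie farthest right, LBR lies farthest left, and 15 of the 21 risen members lie to the right of the band.

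At the branch where prenyl diphosphates form, the pair of synthases went in opposite directions. FDPS makes farnesyl diphosphate, the precursor of squalene, and read 43.0, 42.5 and 40.6 CPM in aggregate libraries against 30.2, 32 and 31.5 in diffuse libraries, with a log2 fold change of 0.43 (SE 0.04, edgeR adjusted p = 1.07e-14). GGPS1 (chr1:235327350-235344532, plus strand) adds a further unit to give geranylgeranyl diphosphate, used to prenylate Rab and other proteins. Its level was 8.90, 8.88 and 8.59 CPM in aggregate libraries against 12.2, 12.1 and 12.9 in diffuse libraries, a log2 fold change of -0.50 (SE 0.07, edgeR adjusted p = 1.91e-10). Neither gene's groups overlapped. Within each library the log2 ratio of FDPS to GGPS1 counts was 2.27, 2.26 and 2.24 in aggregate cells and 1.30, 1.41 and 1.29 in diffuse cells. The ratio was thus higher by 0.92 on the log2 scale in aggregate cells (two-sided exact permutation p = 0.1, adjusted over 4 ratios 0.1, the smallest p that 3 against 3 libraries allow).

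Both genes have limits in how they were counted. GGPS1 shares 37.33% of its exon bases on the same strand with TBCE, a tubulin folding cofactor gene that fell by 0.35 on the log2 scale. The fall of GGPS1 was smaller in spliced reads, with a log2 ratio of -0.22, and there the groups overlapped. FDPS had 41340 reads over annotated introns in the 6 libraries but a gene count of only 9436, a ratio of 4.38, whereas the median member had 0.47. A read may cross more than 1 intron, yet only FDFT1 (1.06) was also above 1. FDPS shares 18.64% of its exon bases with RUSC1-AS1 on the opposite strand, which was below 3 CPM on average in both groups. Processed copies of FDPS, as of CYP51A1 and HSD17B7, are annotated elsewhere in the genome, and their part in the low gene count was not tested. The level of FDPS against other genes is therefore uncertain, while its change was alike in both readouts.

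The 3 genes that build squalene and lanosterol all rose, with a median log2 fold change of 0.73. FDFT1, squalene synthase, commits farnesyl diphosphate to sterols (chr8:11795573-11839309, plus strand). It read 123, 125 and 125 CPM in aggregate libraries against 65.9, 61.7 and 65.2 in diffuse libraries, the largest change of the 3. All aggregate libraries were higher, by 1.93-fold in the fit, a log2 fold change of 0.95 (SE 0.04, edgeR adjusted p = 2.47e-41). SQLE, squalene epoxidase, a rate-limiting oxygenase of the pathway (chr8:124998497-125022283, plus strand), read 182, 177 and 176 CPM in aggregate libraries against 108, 104 and 112 in diffuse libraries. Its log2 fold change was 0.73 (SE 0.04, edgeR adjusted p = 7.61e-34), again with no overlap. LSS, which cyclizes the epoxide to lanosterol, rose from 44.2 ± 2.01 to 66.3 ± 3.23 CPM, by 0.59 (SE 0.04) on the log2 scale.

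Of the 9 members between lanosterol and cholesterol, 7 rose and 2 fell, with a median of 0.42. DHCR7, the reductase of the final step in one of the branches (chr11:71428193-71452868, minus strand), had the largest rise of all members. It read 102, 104 and 99.7 CPM in aggregate libraries against 37.7, 35.6 and 37.6 in diffuse libraries. All aggregate libraries were more than 2-fold above every diffuse library, the log2 fold change was 1.46 (SE 0.04, edgeR adjusted p = 2.15e-53), and 97.0% of tested genes had a lower one. MSMO1 is a methylsterol oxidase that acts in the removal of methyl groups (chr4:165327623-165343160, plus strand). It read 58.5, 54.8 and 59.3 CPM in aggregate libraries against 27.9, 25.3 and 28 in diffuse libraries. The groups stood apart, with a log2 fold change of 1.09 (SE 0.05, edgeR adjusted p = 4.07e-39). NSDHL and HSD17B7, the dehydrogenase and ketoreductase that act after MSMO1 in the same demethylation sequence, rose less, by 0.42 (SE 0.04) and 0.48 (SE 0.07) on the log2 scale. The enzymes of a single demethylation cycle thus rose together but by unequal amounts.

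CYP51A1, the cytochrome P450 that demethylates lanosterol, rose from 71.5 ± 1.95 to 109 ± 1.69 CPM, by 0.61 (SE 0.04, edgeR adjusted p = 7.18e-28). GENCODE 29 places 79.35% of its exon bases in a second gene model on the same strand, absent from the gene table under its own name, so its level depends on how such reads were assigned. EBP, the sterol isomerase, rose from 27.7 ± 0.493 to 32.7 ± 1.71 CPM, a log2 fold change of 0.24. SC5D, the sterol desaturase, read 48.0, 47.5 and 47.7 CPM in aggregate libraries against 51.8, 54.2 and 52.5 in diffuse libraries. This small separation gave a log2 fold change of -0.15 (SE 0.04, edgeR adjusted p = 0.00095). It disappeared after a correction for GC content and gene length (-0.0034 on the log2 scale, adjusted p = 0.935), and spliced reads gave 0.06 with overlapping groups. EBP and SC5D also fell short of a fold of 1.2 (edgeR glmTreat adjusted p = 0.572 and 1).

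The other fall in this stretch was LBR, the lamin B receptor, a protein of the inner nuclear membrane that binds lamina and chromatin and whose membrane domain is a sterol reductase (chr1:225401502-225428925, minus strand). It read 114, 112 and 122 CPM in aggregate libraries against 234, 233 and 246 in diffuse libraries. Diffuse cells had 2.05 times the level, with a log2 fold change of -1.04 (SE 0.04, edgeR adjusted p = 1.19e-44), and only 7.48% of tested genes had a lower one. TM7SF2 encodes the other sterol reductase able to take the same step (chr11:65111845-65116384, plus strand). It was the least abundant member, at 3.68, 3.53 and 3.26 CPM in aggregate libraries against 2.93, 3.10 and 2.62 in diffuse libraries. The rise was small and just free of overlap, with a log2 fold change of 0.28 (SE 0.11, edgeR adjusted p = 0.0197). That call was lost with DESeq2 (adjusted p = 0.0887), with the GC and length correction (0.0512), without aggregate library 1 (0.0779), without diffuse library 3 (0.129) and against a fold of 1.2 (0.339).

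Per length, LBR was the most abundant member in diffuse cells, at 189 ± 7.11 TPM (counts per annotated exon base, scaled to 1e6 in each library without TMM), and the eighth in aggregate cells, at 85.7 ± 3.53. SQLE was the most abundant member in aggregate cells, at 161 ± 3.40 TPM. The order of the upper members there was SQLE, HMGCS1 at 138 ± 2.74, SREBF2 at 126 ± 3.84 and CYP51A1 at 119 ± 1.45, and neighbours in it differed by more than the sum of their SDs. In diffuse cells SREBF2 at 110.0 ± 2.27, HMGCS1 at 108 ± 3.95 and SQLE at 105 ± 4.53 TPM followed LBR, and these 3 were within their spread. DHCR7 moved from place 14 of 28 in diffuse cells, at 37.1 ± 1.41 TPM, to place 5 in aggregate cells, at 95.4 ± 2.59. TM7SF2 was the last in both, at 3.53 ± 0.268 and 3.99 ± 0.260 TPM. All these places rest on gene counts, and the levels of FDPS and CYP51A1 are uncertain there, as given above. In spliced reads, not scaled for length, FDPS had 292.1, 280.5 and 275.7 per 1e6 intron reads in aggregate libraries. SQLE had 89.89, 88.88 and 88.68 in the same libraries, and other members, FDFT1 and SREBF2 among them, were also above it. Such sums grow with the number of introns counted in a gene, so they do not rank the members. The first place of SQLE thus rests on gene counts alone. Corrected for length, LBR counts were 53.3 times those of TM7SF2 in diffuse cells and 21.4 times in aggregate cells. The log2 ratio of LBR to TM7SF2 counts was 4.94, 4.98 and 5.22 in aggregate libraries against 6.31, 6.23 and 6.54 in diffuse libraries, a difference of -1.31 with no overlap (two-sided exact permutation p = 0.1, the smallest possible).

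In the SREBP control system 2 genes rose, 1 fell and 1 was not called, with a median of 0.18. SREBF2, the gene of SREBP-2 itself (chr22:41833079-41907308, plus strand), read 243, 251 and 238 CPM in aggregate libraries against 203, 196 and 199 in diffuse libraries. The groups were apart, with a log2 fold change of 0.29 (SE 0.04, edgeR adjusted p = 4.19e-12), though not beyond a fold of 1.2 (adjusted p = 0.139). SCAP, the escort (chr3:47413694-47477126, minus strand), read 133, 139.7 and 129 CPM in aggregate libraries against 135, 124 and 126 in diffuse libraries. These groups overlapped, and the log2 fold change of 0.06 (SE 0.04) did not pass (edgeR adjusted p = 0.118). SCAP passed, with a larger log2 fold change each time, under upper-quartile scaling (0.11, adjusted p = 0.00588), the GC and length correction (0.08, 0.0244), a filter at 5 CPM (0.08, 0.0455), without aggregate library 3 (0.08, 0.0445) and without diffuse library 1 (0.10, 0.022).

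The INSIG genes, whose proteins both retain SCAP in the endoplasmic reticulum, went in opposite directions. INSIG1, itself a classical target of SREBPs (chr7:155297776-155310235, plus strand), read 27.4, 24.7 and 24.9 CPM in aggregate libraries against 20.1, 18.8 and 22.2 in diffuse libraries. It was higher in every aggregate library, with a log2 fold change of 0.33 (SE 0.05, edgeR adjusted p = 8.95e-08), but did not pass against a fold of 1.2 (0.0642). INSIG2 (chr2:118088452-118110997, plus strand) read 14.5, 14.1 and 14.3 CPM in aggregate libraries against 23.4, 22.5 and 25.3 in diffuse libraries. Diffuse cells held 1.66 times as much, with a log2 fold change of -0.73 (SE 0.06, edgeR adjusted p = 8.42e-22). Within a library the log2 ratio of INSIG1 to INSIG2 counts was 0.92, 0.80 and 0.81 in aggregate cells and -0.22, -0.26 and -0.19 in diffuse cells. INSIG2 counts exceeded those of INSIG1 in all 3 diffuse libraries and fell short of them in all 3 aggregate libraries. The difference was 1.07 on the log2 scale (two-sided exact permutation p = 0.1, the smallest possible), and the geometric mean ratio went from 0.858 to 1.79. Per length the order of the pair was the same, with ratios of 0.928 and 1.94.

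**Figure D3:**
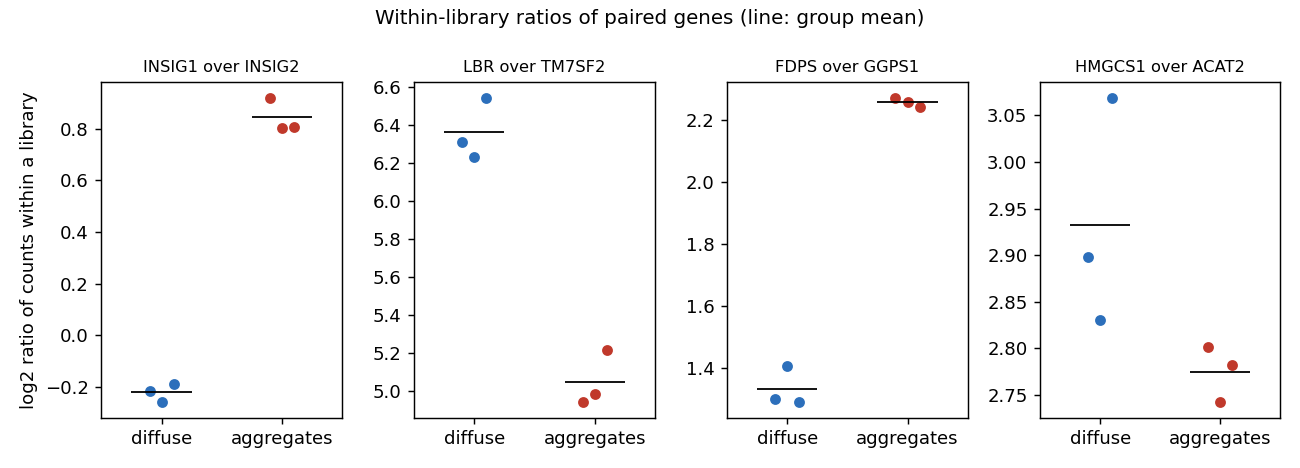
Log2 ratio of the counts of a pair of genes within each library (0.5 added to each count), for diffuse (blue) and aggregate (red) libraries, with a line at the group mean; each panel has its own axis, which does not start at 0. INSIG1 over INSIG2 and FDPS over GGPS1 are higher in all aggregate libraries, LBR over TM7SF2 is lower, and HMGCS1 over ACAT2 moves by only -0.16.

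As a pair taken from consecutive steps of one direction, HMGCS1 over ACAT2 changed less. Its log2 ratio was 2.80, 2.74 and 2.78 in aggregate libraries against 2.90, 2.83 and 3.07 in diffuse libraries. The groups just missed each other, and the difference was -0.16 (two-sided exact permutation p = 0.1, the smallest possible).

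Among the 4 genes of uptake, transport, storage and lipid synthesis, 2 rose and 2 fell. MYLIP, the ubiquitin ligase also called IDOL that sends lipoprotein receptors to degradation (chr6:16129125-16148248, plus strand), read 6.44, 7.24 and 7.0 CPM in aggregate libraries against 12.6, 12.2 and 12 in diffuse libraries. It was 1.78 times as high in diffuse cells, with no overlap and a log2 fold change of -0.83 (SE 0.07, edgeR adjusted p = 3.70e-19). STARD4, a soluble sterol transfer protein (chr5:111496033-111512590, minus strand), read 63.0, 58.0 and 58.5 CPM in aggregate libraries against 38.0, 38.8 and 38.0 in diffuse libraries. The log2 fold change was 0.64 (SE 0.04, edgeR adjusted p = 9.36e-26). SOAT1, which esterifies cholesterol for storage, rose from 94.2 ± 1.69 to 131 ± 2.13 CPM, by 0.48 (SE 0.04) on the log2 scale. LPIN1, a phosphatidate phosphatase of glycerolipid synthesis, went from 99.2 ± 1.80 to 83.0 ± 3.36 CPM, a log2 fold change of -0.26 (SE 0.04, edgeR adjusted p = 2.25e-09). This fall did not pass against a fold of 1.2 (0.457).

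Reads that cross annotated introns, from the deposited intron table, gave a readout from the same libraries. It separates neighbours on opposite strands by their splice sites. An intron annotated to more than 1 gene on the same strand counted for each of them. CYP51A1 and GGPS1 share exon bases with same-strand gene models, so such reads may be included for them. Of the 28 members 27 had the same sign in both readouts, SC5D being the exception, and 24 had groups that did not overlap in spliced reads, as did 69.3% of 13415 genes with at least 10 such reads. The 4 with overlap were GGPS1, TM7SF2, SC5D and LPIN1. TM7SF2 had only 20 such reads over the 6 libraries, too few to give its sign weight. DHCR7 had a log2 ratio of 1.51 in spliced reads, MSMO1 1.21, MVK 1.13, FDFT1 1.02 and LBR -0.93. The widest gap between the readouts was 0.28, reached by GGPS1 and by MYLIP, whose spliced reads gave -0.55. Across members Pearson's r of the readouts was 0.99, a description of n = 28 genes that share the same 6 libraries and reads.

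**Figure D4:**
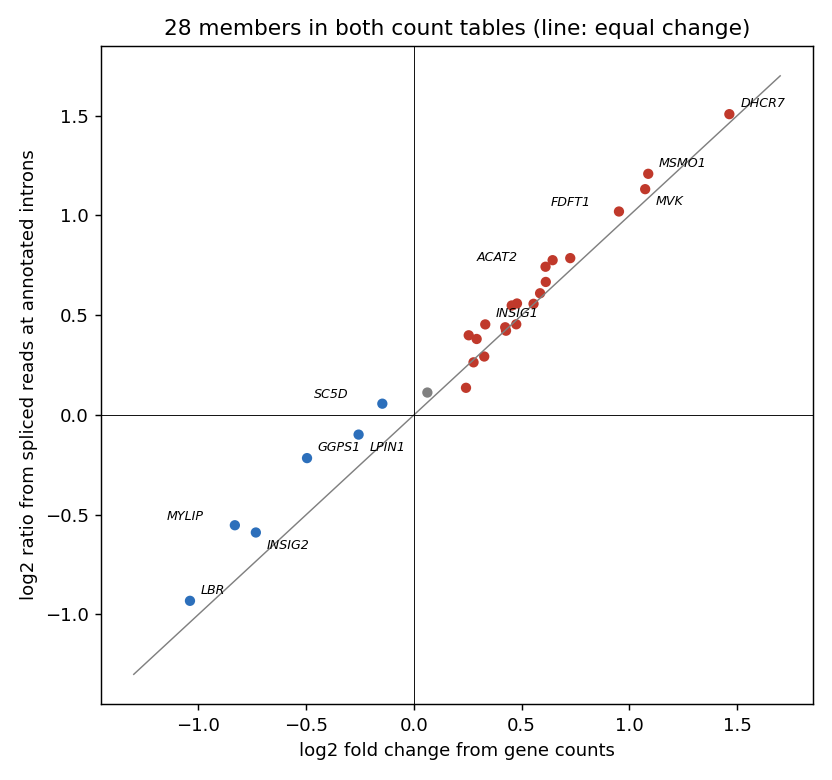
Log2 fold change of the 28 members from gene counts (x axis) against the log2 ratio of spliced reads at annotated introns, scaled to 1e6 intron reads (y axis), with a line of equal change; red rose, blue fell and grey was not called by gene counts. SC5D is the member whose sign differs, and MYLIP and GGPS1 lie farthest above the line.

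Splice site use within the members was compared from the same intron counts. LeafCutter groups introns that share a splice site into clusters, and 75 clusters in 27 members could be tested, TM7SF2 having none. With edgeR's diffSpliceDGE and a Simes p per cluster, 2 of them (2.67%) passed an adjusted p of 0.05, against 5.02% of 35898 clusters tested. In INSIG1 (adjusted p = 0.0198) an intron at chr7:155298698-155302746 (hg38, plus strand) skips a pair of annotated exons of 125 and 167 bases. Its reads numbered 4, 2 and 2 of 303, 336 and 259 cluster reads in aggregate libraries against 10, 15 and 12 of 192, 206 and 282 in diffuse libraries. The skipping intron took the smallest share of cluster reads in every library. It took 0.896% ± 0.378 (SD, n = 3) in aggregate cells and 5.58% ± 1.55 (SD, n = 3) in diffuse cells. The groups did not overlap. The other introns of the cluster lie on either side of the skipped exons, so a transcript that keeps these exons can count at each. The percentages are therefore shares of intron reads, not of transcripts. Together the skipped exons hold 292 bases.

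The other cluster was in GGPS1 (adjusted p = 0.0492). The intron whose use moved most, chr1:235328779-235335241, took 34.5% ± 2.05 (SD, n = 3) of cluster reads in aggregate cells and 31.8% ± 2.22 (SD, n = 3) in diffuse cells, and the groups overlapped. The lowest p in the cluster belonged to an intron that ends at the same acceptor, chr1:235330603-235335241, named here after its values were seen. It had 10, 10 and 21 reads in aggregate libraries against 2, 6 and 0 in diffuse libraries, of 373, 423 and 470 and of 460, 484 and 480 cluster reads. Neither cluster's call held in every setting. Over the fits that left out 1 library the adjusted p ran from 0.0259 to 0.171 for INSIG1 and from 0.0136 to 0.397 for GGPS1, and at most 1 of the 2 clusters passed in any of these fits. Among the other member clusters the lowest adjusted p was 0.0840 and none was called.

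Other genes of sterol handling were taken from 6 lists that hold no member, with 98 genes tested. Of these 35 rose (35.7%), 41 fell (41.8%) and 22 did not pass, near the 37.8% and 37.6% over all genes, with a median log2 fold change of -0.05 against 0.01. No test compared the lists with the members. The lists were chosen with earlier results of these data known, and are described by counts only.

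Nearest to the members is the list of further synthesis steps and redox partners, in which 7 of 11 genes rose (63.6%) and 4 fell (median 0.23). ACAT1, the mitochondrial counterpart of ACAT2, rose from 46.4 ± 1.37 to 81.5 ± 1.39 CPM, by 0.81 on the log2 scale, and TMEM97, a sterol-responsive membrane protein, by 0.40. FAXDC2, a hydroxylase-family gene, went from 1.66 ± 0.245 to 0.998 ± 0.111 CPM, a log2 fold change of -0.72. AACS, the acetoacetyl-CoA synthetase, and POR, the electron donor of CYP51A1 and SQLE, had log2 fold changes of -0.26 and -0.24, and neither passed against a fold of 1.2 (0.372 and 0.640).

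For SREBP processing and sterol-regulated degradation the counts were 9 up, 5 down and 7 not called of 21 (median 0.02). PAQR3, a Golgi anchor of SCAP, rose from 80.8 ± 1.7 to 144 ± 4.28 CPM, by 0.83 on the log2 scale. ERLIN2, a membrane scaffold in degradation, rose by 0.43 and SAR1B, a GTPase of COPII vesicles, by 0.39. RNF145, a ubiquitin ligase of the endoplasmic reticulum tied to sterol sensing, fell from 176 ± 6.53 to 92.1 ± 5.69 CPM, a log2 fold change of -0.93. SAR1A, the paralogue of SAR1B, had -0.50, and TECR, an enoyl-CoA reductase, -0.25. The change of TECR did not pass against a fold of 1.2 (edgeR glmTreat adjusted p = 0.544).

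The remaining lists cover transport, receptors and efflux. In sterol transport and ester storage 8 of 24 rose and 14 fell (median -0.18). NPC1, which exports cholesterol from lysosomes, nonetheless rose from 45.4 ± 0.411 to 118 ± 2.72 CPM, by 1.38 on the log2 scale, and LIPA, the lysosomal acid lipase, from 46.8 ± 0.575 to 92.9 ± 1.74, by 0.99. GRAMD1B, a sterol carrier at membrane contacts, rose by 0.36, whereas VAPB, a tether at such contacts, had -0.87, NCEH1, a cholesterol ester hydrolase, -0.68, and OSBPL11 -0.47. Among lipoprotein receptors and adaptors 4 of 11 rose and 5 fell (median -0.05), shares near those over all genes. SCARB1, the receptor for high-density lipoprotein, rose from 100.2 ± 1.48 to 187 ± 11.4 CPM, by 0.90, and LRP8 by 0.65. LRP6 had -0.46, LRP1 -0.24 and SORL1 -0.19. With the GC and length correction SORL1 was near 0 (-0.01, edgeR adjusted p = 0.898), as was LRP1 (-0.07, 0.0525). Neither SORL1 nor LRP1 passed against a fold of 1.2 (edgeR glmTreat adjusted p = 0.95 and 0.637). In LXR factors, efflux and oxysterol enzymes 3 of 15 rose and 7 fell (median -0.36). ABCG1, a sterol exporter that LXRs switch on, fell from 21.6 ± 0.450 to 10.4 ± 0.287 CPM, a log2 fold change of -1.05. CYP7B1, an oxysterol hydroxylase, had -0.86 and NCOA1, a nuclear receptor coactivator, -0.81, while NR1H3, which encodes an LXR, rose by 0.49, RXRB by 0.40 and ABCA5 by 0.37.

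**Figure D5:**
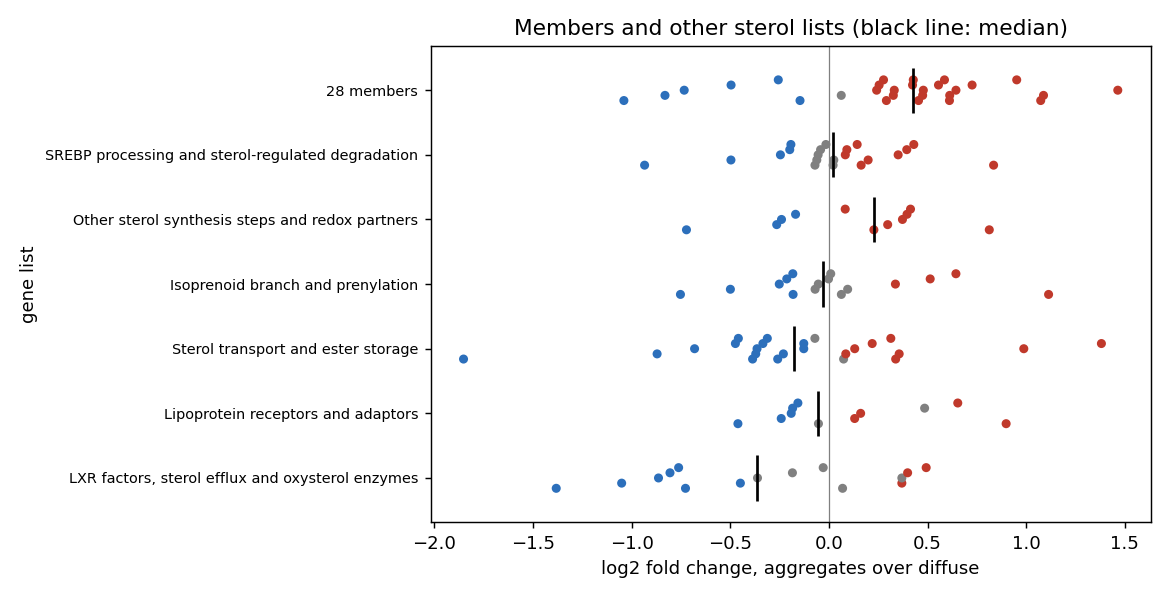
Log2 fold change of each tested gene in the members and the other sterol lists, 1 point per gene, red rose, blue fell, grey not called, with a black line at each list's median. The median of the members is 0.43, and those of the other lists run from -0.36 to 0.23.

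For the libraries as a whole, total gene counts were 40279084 to 46863013, so 1 count stood for 0.0212 to 0.0251 CPM, and member counts ran from 112 (TM7SF2) to 11798 (SREBF2) in a library. TARDBP, the gene of TDP-43, whose count does not separate transgene from endogenous RNA, was at 2581 ± 42.5 CPM in aggregate cells and 7440 ± 218 in diffuse cells. Mesenchymal and osteosarcoma markers were all present (10 of 10 at 1 CPM or more), summed to 5590 to 6060 CPM in aggregate and 8390 to 8770 in diffuse libraries, with 3 up and 5 down. Hepatocyte and steroid-producing markers, types with high sterol turnover, were each below 1 CPM (0 of 4 in both lists), with TTR at 0, as were 4 of 4 blood markers. Neuron markers summed to 165 to 170 CPM in aggregate and 101 to 104 in diffuse libraries (3 of 4 rose), and epithelial markers to 12.1 to 13.3 and 18.5 to 19.2 (2 of 4 fell). The part of these differences in the members' changes was not tested.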

How the data were processed

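Poly(A)-selected RNA was sequenced in 6 libraries, 3 a group, from separate transfections that the series design calls independent, with 1 batch label. The values are whole-number counts per gene and per intron (LeafCutter) as deposited, not normalized. The tools STAR 2.7.11a and fastp 0.23.2 and the build hg38 are named per the submitters' processing notes. No source used here gives the LeafCutter version, or the program, annotation and strand setting that counted reads per gene. From the counts, edgeR 4.0.16 (R 4.3.3; filterByExpr, TMM, robust quasi-likelihood fit) tested 17839 genes, with Benjamini-Hochberg adjustment over all of them. The SE is the log2 fold change over the root of F. Introns were kept from 10 counts over all libraries, clusters from 10 counts in each library, and tested with diffSpliceDGE. Exon lengths and overlaps came from GENCODE 29. DESeq2 1.42.0, other scalings, filters, a fold of 1.2, a replicate block, GC and length offsets and leaving out each library were the alternatives. The scripts were tested on simulated data. All members are named, and in the other lists up to 3 changed genes of at least 1 CPM with the largest change each way, except 2 genes that are not reported here. Members and lists were chosen with earlier results of these data known. No column belonged to an unknown sample. Each member had at least 112 counts in every library, and libraries of 1 group varied beyond counting noise.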

Additional observations from a re-analysis of the deposited data

How the results depend on the processing

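No member reversed its direction in any alternative fit of the gene counts. Of 391 member values recomputed under alternatives, 373 stayed on their side of the threshold, 13 lost the call and 5, all of SCAP, gained it. Between 20 and 22 members rose and 6 fell when 1 library was left out, and 15 rose and 4 fell against a fold of 1.2, where 4483 of all genes rose and 4719 fell in place of 6741 and 6714. Of all genes, 35.5% to 36.3% rose and 35.6% to 36.6% fell when 1 library was left out. With the GC and length correction 21 members rose and 5 fell, beside 39.9% and 36.5% of all genes. The members' median there was 0.36 against 0.03 for all genes. These were not the same 21 members, as TM7SF2 lost its call and SCAP gained one. SC5D also lost its call. In the other sterol lists 20 genes rose and 21 fell against a fold of 1.2, and without 1 library 31 to 34 rose and 41 to 46 fell. Among the rule's named genes of these lists, CHM also lost its call with the GC and length correction (-0.06, adjusted p = 0.137). Without 1 library, 0 to 1 member intron clusters passed: 0 without aggregate library 2 or 3 or diffuse library 1, and 1 in each of the other 3 fits. Over all genes, 1171 to 1318 clusters passed in these fits and 2721 with a cluster-level F test, against 1802. The cause was not tested, and each such fit has fewer samples. With the replicate number as a block, 21 members rose and 6 fell as before, beside 38% and 37.8% of all genes. With the same block 1 member intron cluster passed, that of INSIG1 (diffSpliceDGE adjusted p = 0.0359, against 0.0946 for GGPS1). Same-numbered libraries correlated at 0.0405, 0.10 and 0.11 in their deviations, and the other pairs across groups at -0.1 to -0.0097. Every library thus correlated best with its own number, though weakly. Whether same-numbered libraries share more than a number is not settled, and the block was kept as an alternative. Exact permutation of 3 against 3 libraries cannot give a p under 0.1.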

Other observations

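A list of isoprenoid and prenylation genes, which build or attach prenyl groups or process prenylated proteins, was mixed: of 16 genes 4 rose (25%), 6 fell (37.5%) and 6 did not pass, with a median log2 fold change of -0.03. RABGGTB, the beta subunit of the transferase that prenylates Rab proteins, rose from 50.1 ± 4.75 to 108 ± 4.83 CPM, by 1.11 on the log2 scale. PDSS1, which builds the side chain of coenzyme Q, rose by 0.64, and TRIT1, which prenylates transfer RNA, by 0.51. FNTA, the alpha subunit that farnesyltransferase and a geranylgeranyl transferase share, fell from 58.9 ± 2.62 to 35 ± 1.19 CPM, a log2 fold change of -0.75. PGGT1B, the beta subunit of that geranylgeranyl transferase, had -0.50, and CHM, the Rab escort protein, -0.25. The change of CHM did not pass against a fold of 1.2 (edgeR glmTreat adjusted p = 0.499).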
